A study of Mus musculus with 8 samples.

Results

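The genes described here carry out or control the oxidation of fatty acids in the liver, or are switched on by the nuclear receptor PPAR-alpha. They were chosen by name: 37 symbols of mitochondrial and peroxisomal oxidation, ketone body formation and PPAR-alpha targets, leaving out the Cyp4 family. Of these, 36 had a probe set annotated to that symbol alone, among 19938 genes measured in all. Acsl1, which activates long-chain fatty acids, had none and is not analysed here. Each gene is read through its brightest probe set by the mean of all 8 arrays.

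Liver RNA was measured on 1 Affymetrix array per mouse in 4 transgenic and 4 control mice, all 4 weeks old. The transgenic mice carry a constitutively active IKK2 behind the LAP promoter, which is active in hepatocytes. The controls are wild type. The background of both groups was C57BL/6 mixed with NMRI, after 4 or more backcrosses to C57BL/6. The sources used here do not give the sex, litter or feeding state of the mice. All levels below are log2 expression values. Each group is labelled as biological replicates, so p-values weigh the difference between groups against the spread between mice. Limma moderates this spread with that of all probe sets fitted. The small number of arrays limits precision. In whole liver, fewer cells of a type and less RNA per cell cannot be told apart.

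As background, fatty acids are bound by carrier proteins, activated to acyl-CoA and passed into mitochondria as carnitine esters. There a spiral of enzymes shortens them to acetyl-CoA, which the liver turns into ketone bodies during fasting. Peroxisomes shorten the very long chains. PPAR-alpha senses fatty acids, pairs with RXR and binds a direct repeat of the half-site AGGTCA with 1 base between the copies, called DR1, in the promoters of many of these genes. IKK2 is the kinase that sets NF-kB free to act, and the comparison asks how this hepatocyte programme differs when the kinase is always on.

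Both genes of the set that passed the test across all genes, Fabp1 and Acot1, are textbook targets of PPAR-alpha, so their promoters are shown. The letters are the 250 bases before the annotated start, from RefSeq on GRCm38.p6, 5′ to 3′ on the gene's strand. Capitals mark a DR1 match. The Fabp1 stretch is chr6:71199629-71199878 (+ strand) and the Acot1 stretch is chr12:84009252-84009501 (+ strand).
Fabp1: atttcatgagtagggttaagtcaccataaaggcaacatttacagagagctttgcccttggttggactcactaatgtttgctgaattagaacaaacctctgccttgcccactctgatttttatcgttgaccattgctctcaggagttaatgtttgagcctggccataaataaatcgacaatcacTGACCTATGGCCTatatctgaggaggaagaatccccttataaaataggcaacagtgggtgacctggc
Acot1: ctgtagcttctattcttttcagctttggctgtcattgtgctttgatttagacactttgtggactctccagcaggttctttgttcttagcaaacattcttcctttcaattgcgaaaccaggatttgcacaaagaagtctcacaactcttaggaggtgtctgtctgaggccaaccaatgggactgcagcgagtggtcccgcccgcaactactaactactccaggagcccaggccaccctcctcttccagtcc

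The search covered 250 bases before and 50 after each start, on both strands. It looked for AGGTCANAGGTCA with up to 2 mismatches in the half-sites. Promoters were given for 31 of the 37 genes, and 4 of these 31 (12.9%) held a match, against 1190 of 27025 genes (4.40%) in the whole table. The 4 sites are set out below in the direction of the motif, with matching bases of the half-sites in capitals.
Fabp1: AGGcCAtAGGTCA
Slc25a20: AGGTgAaAGGTCg
Etfa: AGGgCAaAGGTaA
Acot4: cGGcCAaAGGTCA

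The Fabp1 match had 1 mismatch and was centred 61 bases before the start on the opposite strand, so it appears reversed in the stretch above, and the other matches had 2 mismatches each. The Acot1 window held no match, which says only that these letters are not in it. The NF-kB motif, searched by its usual consensus on both strands with no mismatch, was found in 1 of the 31 genes (3.23%), Etfa, against 5.14% of all genes. A match is a description of letters and not of binding.

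Array medians lay between 4.88 and 5.08, with the lowest, 4.88 and 4.92, in transgenic replicates 2 and 1. Upper quartiles ran from 6.87 to 7.06 in transgenic arrays and from 6.76 to 6.85 in controls, so the spread of values differed by group. Ikbkb, the gene of IKK2, read 8.38 to 9.09 in transgenic livers and 7.44 to 7.85 in the controls (log2 fold change 1.00, SE 0.18, adjusted p = 0.0185). The sources used here do not say whether its probe set reads the transgene. The hepatocyte marker Alb, serum albumin, had means of 13.57 in transgenic and 13.56 in control liver. Alb does not stand for all 11 hepatocyte markers measured. Their median log2 fold change was -0.15, with 7 negative (63.6%, against 61.6% of all genes).

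As a set, the genes lay slightly lower in transgenic liver, but few differences were large against the spread between animals. Of 36 genes 32 had a negative log2 fold change (88.9%, against 61.6% of all genes). The median was -0.26, against -0.07 for all genes. By limma's test 2 genes fell, where 1.67% of all genes were called lower, and 0 rose, where 4.67% were called higher. At an unadjusted p under 0.05, 13 of the 36 genes were lower, against 18.3% of all genes, and 1 was higher, against 15.3%. Every transgenic array lay under every control array for 9 of the 36, against 11.2% of all genes. Every transgenic array lay above every control array for 1 of the 36, against 11.2% of all genes.

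The all-gene calls shifted with the scaling, from 333 lower and 932 higher to 638 and 1066 with quantile normalization and to 97 and 618 when array medians were set equal. This centring left 28 of the 36 genes on the lower side, against 48.9% of all genes. It turned the sign of Ppargc1a, Cpt1a, Hadh and Pex11a, whose differences were close to 0. With centred arrays 0 genes of the set were called, and 11 of the 36 were lower at an unadjusted p under 0.05, against 11% of all genes.

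Only 4 genes differed by 1.5-fold or more: Acot1, Crot, Decr1 and Crat. For 33 of the 36 genes the 95% interval of the log2 fold change lay inside a 2-fold change either way. The 3 that reached past it, all on the lower side, were Acot1, Crot and Decr1. These intervals are not adjusted for the number of genes.

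**Figure D1:**
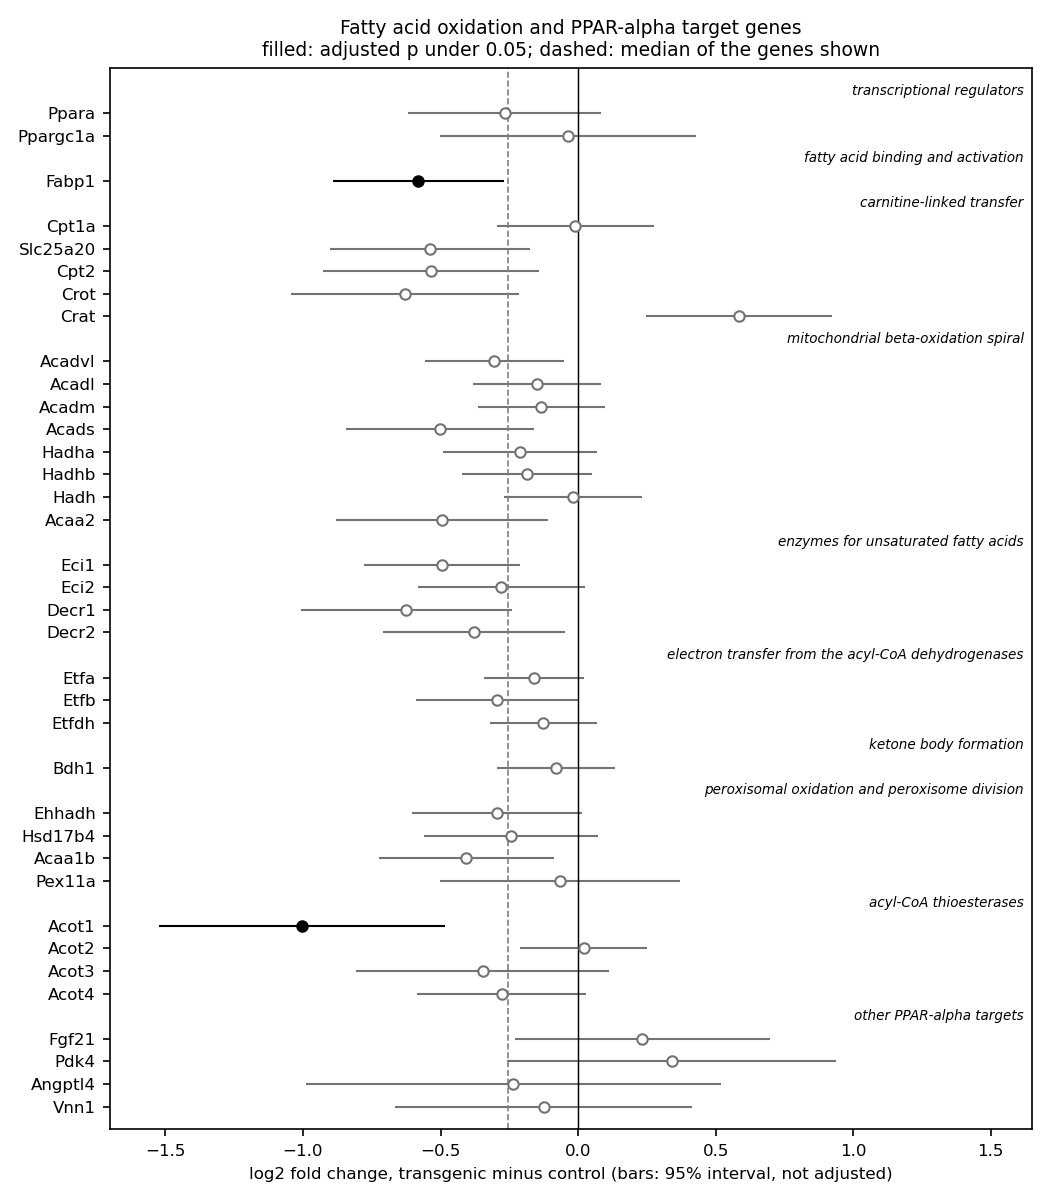
Log2 fold change of each gene, transgenic minus control, with its 95% interval from limma (n = 4 and 4 mice), grouped by role. Most points lie left of 0 around the median of -0.26, Fabp1 and Acot1 are the filled points that passed the test, and Crat stands alone on the right with an interval above 0.

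Of the 2 regulators 0 passed, and 0 had an unadjusted p under 0.05. Ppara, the gene of PPAR-alpha itself, read 9.83, 9.38, 9.24 and 9.78 in control replicates 1 to 4 and 9.39, 8.99, 9.31 and 9.48 in transgenic replicates 1 to 4. The groups overlapped, with control replicates 2 and 3 inside the transgenic range. Its log2 fold change was -0.27 (95% interval -0.62 to 0.08, adjusted p = 0.244). Ppargc1a, a coactivator that raises oxidation genes in fasting, read 7.05, 7.34, 6.95 and 6.56 in controls and 6.76, 7.41, 7.06 and 6.52 in transgenic livers. Both groups covered the same range, with a log2 fold change of -0.04 (95% interval -0.50 to 0.43). Its second probe set gave 0.08, so the sign depends on the probe set, and centring the arrays turned it to 0.04.

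Fabp1 encodes the liver fatty acid binding protein, an abundant carrier in the hepatocyte cytosol, and it fell. Controls read 12.56, 12.51, 12.14 and 12.51, and transgenic livers 11.78, 11.55, 11.97 and 12.10. Every transgenic liver lay under every control, although control replicate 3 was close to transgenic replicate 4. The log2 fold change of Fabp1 was -0.58 (95% interval -0.89 to -0.27, SE 0.14, adjusted p = 0.0432). Leaving out transgenic replicate 1 or 2 ended the call (adjusted p = 0.123 and 0.0544), as did leaving out any 1 of control replicates 1 to 4 (0.100, 0.115, 0.0572 and 0.0878). It was also lost after centring arrays on their medians (0.0663), within a range of 0.0225 to 0.404 over all alternatives.

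Acyl groups enter mitochondria through carnitine, and of the 5 genes of this step 0 passed, with 3 lower and 1 higher at an unadjusted p under 0.05. Cpt1a, the outer membrane transferase that sets the pace of mitochondrial oxidation, read 10.80, 10.32, 10.47 and 10.80 in controls and 10.66, 10.39, 10.65 and 10.65 in transgenic livers. Its log2 fold change was -0.01 (95% interval -0.30 to 0.27), and the sign turned to 0.07 with centred arrays. The interval lay well inside a 2-fold change. The genes of the proteins that act next, at the inner membrane, had lower means in transgenic liver.

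Slc25a20, the carrier that swaps acylcarnitine for carnitine, read 10.06, 10.20, 9.92 and 10.22 in controls and 9.40, 9.14, 9.87 and 9.83 in transgenic livers. The groups did not overlap, and the log2 fold change was -0.54 (SE 0.16, adjusted p = 0.0692). Cpt2, which turns acylcarnitine back into acyl-CoA, read 9.28, 8.89, 9.23 and 9.12 in controls and 8.45, 8.13, 8.87 and 8.93 in transgenic livers. Transgenic replicate 4 overlapped control replicate 2, and the log2 fold change was -0.53 (SE 0.18, adjusted p = 0.0818). Neither passed the test.

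The carnitine acyltransferases of other chain lengths had opposite signs. Crot, the peroxisomal carnitine octanoyltransferase for medium chains, read 11.94, 11.94, 11.64 and 12.19 in controls against 11.26, 10.79, 11.50 and 11.65 in transgenic livers. Its log2 fold change of -0.63 (SE 0.19, adjusted p = 0.0661) did not pass, with transgenic replicate 4 and control replicate 3 at almost the same level. Crat, the carnitine acetyltransferase for the shortest chains, read 8.24, 8.23, 8.41 and 7.94 in controls and 8.89, 9.10, 8.77 and 8.41 in transgenic livers. It was the only gene of the set higher in every transgenic liver, the lowest of them level with control replicate 3. Its log2 fold change of 0.59 (SE 0.15, adjusted p = 0.0519) just missed the threshold. Without transgenic replicate 4 both passed, Crot with an adjusted p of 0.0346 and Crat with 0.0158, and Slc25a20 and Cpt2 passed as well (0.0430 and 0.0447). In that setting 4.73% of all genes were called lower and 8.21% higher.

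**Figure D2:**
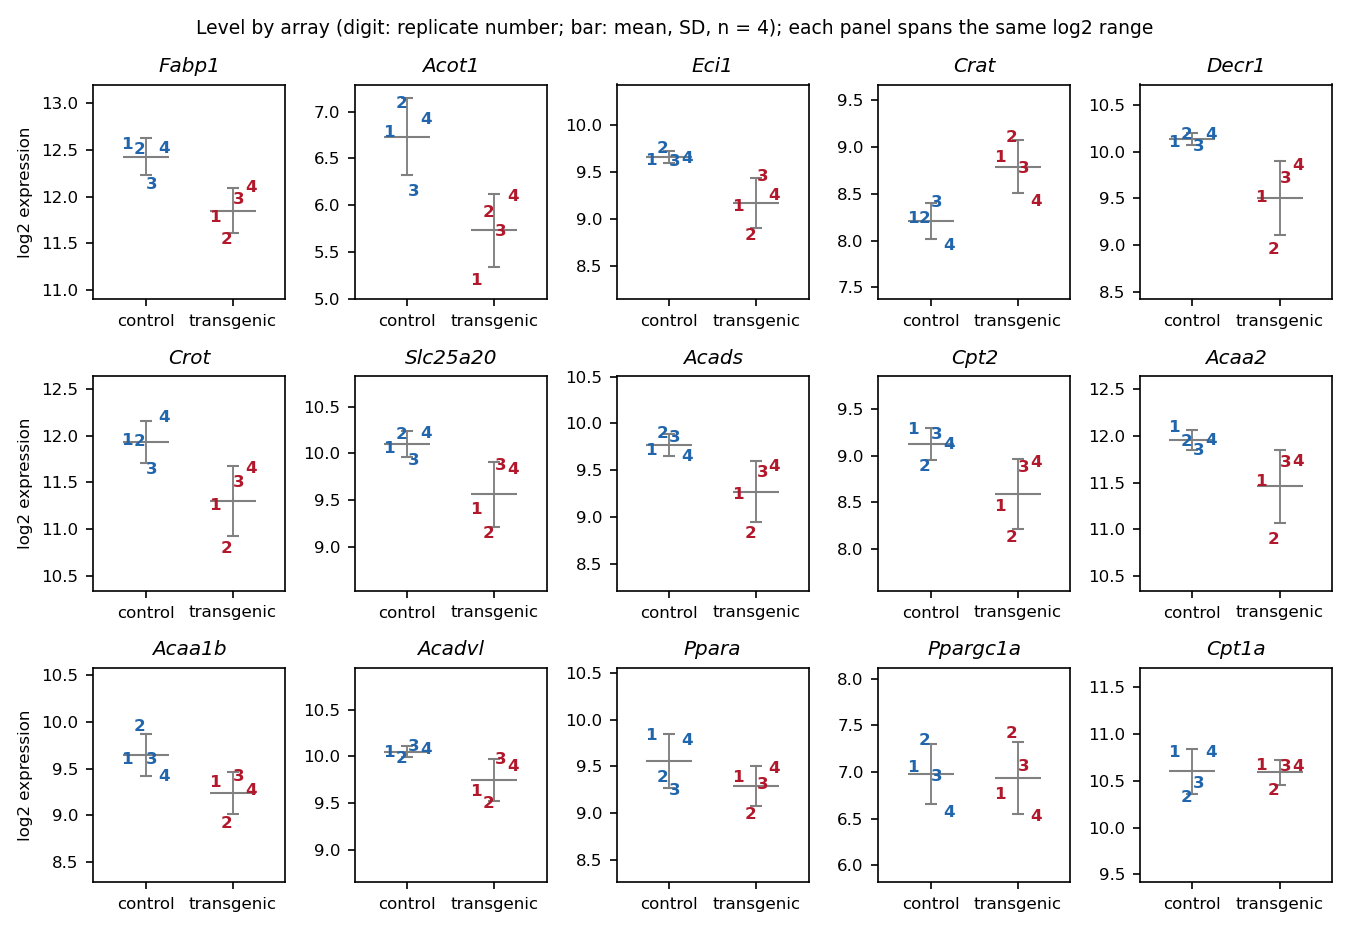
Log2 expression in each array for the 12 genes with the smallest p and for Ppara, Ppargc1a and Cpt1a; digits are replicate numbers, bars are mean and SD (n = 4). The groups separate downwards for Fabp1, Acot1, Eci1, Decr1, Slc25a20, Acads, Acaa2, Acaa1b and Acadvl, and upwards for Crat.

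Inside the mitochondrion, each turn of the spiral removes 2 carbons. All 8 genes of the spiral had negative log2 fold changes, from -0.50 to -0.02, and 0 of 8 passed, with 3 lower at an unadjusted p under 0.05. The sign of Hadh turned with centred arrays. Among the dehydrogenases that open each turn, Acads, for short chains, read 9.70, 9.90, 9.84 and 9.64 in controls and 9.24, 8.82, 9.48 and 9.54 in transgenic livers. The groups did not overlap (log2 fold change -0.50, SE 0.15, adjusted p = 0.0707). Acadvl, for very long chains, read 10.04, 9.98, 10.11 and 10.07 against 9.63, 9.49, 9.97 and 9.89. Its controls were close together and all transgenic livers lay below them (-0.30, SE 0.11, adjusted p = 0.104).

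The medium-chain and long-chain dehydrogenases differed less. Acadm had a log2 fold change of -0.13, with controls between 11.23 and 11.25 and only transgenic replicate 2 set apart, at 10.81. Acadl, for long chains, stood at -0.15. The trifunctional protein, made of the Hadha and Hadhb chains, handles the middle steps for long chains. Its genes stood at -0.21 and -0.19, and the second probe set of Hadhb gave -0.18. Hadh, the hydroxyacyl-CoA dehydrogenase for shorter chains, stood at -0.02 (95% interval -0.27 to 0.23).

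Acaa2, the thiolase that closes the turn, read 12.09, 11.94, 11.84 and 11.95 in controls and 11.51, 10.89, 11.72 and 11.73 in transgenic livers. The groups did not overlap, with transgenic replicate 2 far below the rest (-0.50, SE 0.17, adjusted p = 0.0927). Without transgenic replicate 4 Acads passed (adjusted p = 0.0409). Acadvl and Acaa2 passed under none of the 18 alternatives tried.

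Double bonds need extra enzymes before the spiral can go on. All 4 of these genes lay on the lower side, also with centred arrays. By limma 0 of 4 passed, with 3 at an unadjusted p under 0.05. Eci1, the mitochondrial enoyl-CoA isomerase, read 9.62, 9.76, 9.62 and 9.64 in controls and 9.13, 8.82, 9.46 and 9.26 in transgenic livers. The controls were tight and the groups did not overlap. Its log2 fold change of -0.50 (SE 0.13, adjusted p = 0.0508) lay at the edge of the threshold, and it passed under 8 of 18 alternatives.

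Decr1, the mitochondrial dienoyl-CoA reductase, read 10.10, 10.18, 10.06 and 10.19 in controls and 9.51, 8.95, 9.71 and 9.85 in transgenic livers. The groups did not overlap, and transgenic replicate 2 was the lowest (-0.62, SE 0.17, adjusted p = 0.0584). Decr1 passed under 6 of 18 alternatives, among them without transgenic replicate 2 (adjusted p = 0.0333), replicate 3 (0.0495) or replicate 4 (0.0274). Eci1 passed without transgenic replicates 3 or 4 (0.0251 and 0.0462). The peroxisomal partners stood at -0.28 (Eci2) and -0.38 (Decr2), with overlapping groups.

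Electrons from the dehydrogenases pass through the flavoprotein ETF to the respiratory chain. The genes of its subunits, Etfa and Etfb, stood at -0.16 and -0.29, and Etfdh, its oxidoreductase, at -0.13. The groups overlapped for all 3 and 0 passed, with Etfb at an unadjusted p of 0.05. Bdh1, which makes the ketone body beta-hydroxybutyrate, read 10.35 to 10.54 in controls and 10.18 to 10.52 in transgenic livers (-0.08, 95% interval -0.29 to 0.13).

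Among the peroxisomal genes 0 of 4 passed, and Acaa1b alone had an unadjusted p under 0.05. Acaa1b, a peroxisomal thiolase, read 9.60, 9.95, 9.60 and 9.42 in controls and 9.35, 8.91, 9.42 and 9.27 in transgenic livers. The groups touched without overlapping (-0.41, SE 0.14, adjusted p = 0.0934). Whether its probe set tells it from its paralog Acaa1a, which stood at 0.07, was not tested. Ehhadh, the peroxisomal bifunctional enzyme and a sensitive PPAR-alpha target, read 10.64 to 10.73 in controls and 10.74, 9.999, 10.45 and 10.39 in transgenic livers. Transgenic replicate 1 lay at the control level and the other 3 below it (-0.30, SE 0.14, adjusted p = 0.163). Hsd17b4, the second bifunctional enzyme, stood at -0.24. Pex11a, a protein of peroxisome division, stood at -0.07, a sign that turned with centred arrays.

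Acyl-CoA thioesterases split acyl-CoA into free fatty acid and CoA. The lowest log2 fold change of the whole set belonged to Acot1, the cytosolic form, which fell. Controls read 6.78, 7.09, 6.15 and 6.92, and transgenic livers 5.19, 5.92, 5.71 and 6.09. The transgenic readings lie not far above the array medians of 4.88 to 5.08, and no detection value was at hand. All transgenic livers lay below all controls, although control replicate 3 was close to transgenic replicate 4. Its level fell 2.01-fold (95% interval of the log2 fold change -1.52 to -0.48, SE 0.23, adjusted p = 0.0403). Leaving out transgenic replicate 1 ended this call (adjusted p = 0.109), and so did leaving out control replicate 1, 2 or 4 (0.0930, 0.112 and 0.0843). Centring arrays on their medians ended it too (0.0611), over a range of 0.0160 to 0.174 in all alternatives.

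The paralogs of Acot1 lie beside it in the genome, and 0 of these 3 passed, nor had any an unadjusted p under 0.05. Acot2, the mitochondrial form, read 6.92 to 7.24 in controls and 6.93 to 7.17 in transgenic livers (0.02, 95% interval -0.21 to 0.25). A difference in response between the paralogs was not tested. Acot4, of peroxisomes, stood at -0.28. Acot3, also of peroxisomes, stood at -0.35, with transgenic replicate 1 at 4.06 and the other 7 arrays between 4.95 and 5.30. How far probe sets for such similar transcripts cross-react was not tested.

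The 4 targets of PPAR-alpha that act outside oxidation, several of them tied to fasting, had a median log2 fold change of 0.05, and 0 of 4 passed or had an unadjusted p under 0.05. Fgf21, a hormone of the fasted liver, read 4.81, 5.29, 4.86 and 4.68 in controls and 5.78, 4.91, 4.95 and 4.94 in transgenic livers. Only transgenic replicate 1 stood out, and the readings lie near the array medians (0.23, 95% interval -0.23 to 0.70). Pdk4, which shuts off pyruvate oxidation, read 6.03, 6.87, 6.08 and 6.14 in controls and 6.34, 7.42, 6.39 and 6.34 in transgenic livers. In each group replicate 2 was far above the others (0.34, 95% interval -0.26 to 0.94).

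Angptl4, a secreted inhibitor of lipoprotein lipase, had the largest SD of the set among controls, 0.67. It read 8.83, 9.23, 7.70 and 8.22 in controls and 8.19, 8.69, 8.59 and 7.57 in transgenic livers (-0.23, 95% interval -0.99 to 0.52). Vnn1, the pantetheinase vanin, ranged from 7.31 to 8.27 in controls and from 7.29 to 8.11 in transgenic livers (-0.12, 95% interval -0.66 to 0.41). For both, the spread inside each group was larger than the difference between the group means.

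The spread between mice was wider among transgenic livers for most of these genes. The SD was larger in the transgenic group for 26 of 36 genes, with median SDs of 0.27 and 0.17, against 0.16 and 0.14 over all genes. The share of all genes with a larger SD in the transgenic group was not counted. Relative to each gene's control mean, the median over the 36 genes was -0.30, -0.44, -0.09 and -0.13 in transgenic replicates 1 to 4. It was 0.03, 0.04, -0.06 and 0.03 in the controls. Transgenic replicate 2 held the lowest value of its group for 25 of the 36 genes. The same count over all genes was not made. The median over all genes was also lowest in this array, at -0.11, against -0.08, -0.03 and -0.04 in transgenic replicates 1, 3 and 4.

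**Figure D3:**
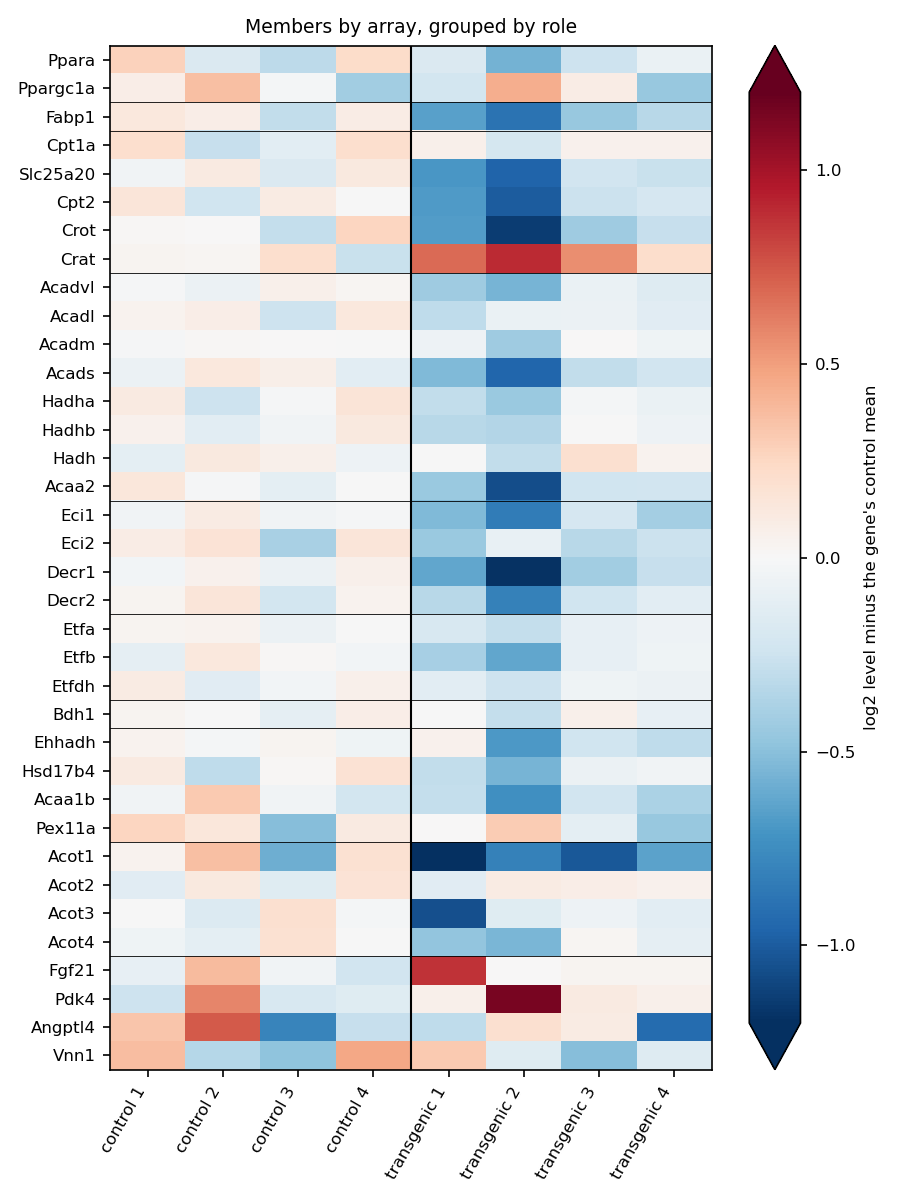
Log2 level of each of the 36 genes in each array, minus that gene's control mean (blue lower, red higher), in order of role. Transgenic replicates 1 and 2 are the bluest columns, with medians of -0.30 and -0.44, and Crat is the one gene that is red in all 4 transgenic arrays and separated from the controls.

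Without transgenic replicate 2 the median of the set was -0.19, 31 of 36 genes stayed on the lower side, and the called genes were Acot1 and Decr1. Of all genes 61.3% then lay on the lower side and 1.3% were called lower. Without transgenic replicate 4, 8 genes were called lower (Acads, Acot1, Cpt2, Crot, Decr1, Eci1, Fabp1 and Slc25a20) and Crat higher. In that setting 4.73% of all genes were called lower and 8.21% higher. Without transgenic replicate 1 or without control replicates 1, 2 or 4, 0 genes of the set were called. Few genes of any kind were then called lower, 0.015%, 0.0652%, 0.0502% and 0.16% of all genes, so these counts of 0 say nothing particular about the set. Genes of the set lower at an unadjusted p under 0.05 numbered 12, 11, 13 and 11 of 36 in the same 4 settings, against 11.6%, 16.2%, 13.2% and 17.5% of all genes.

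Markers of other cells moved in the same livers. All 14 macrophage markers were higher in every transgenic liver and 12 of 14 passed, led by Lyz2 at 2.84, Ccr2 at 3.72 and Cx3cr1 at 2.32. The shares over all genes were 11.2% above every control in every transgenic liver and 4.67% called higher. Their mean level ranged from 8.84 to 10.11 in transgenic livers and from 7.41 to 7.73 in controls. By array, their median above the control mean was 1.59, 2.47, 1.35 and 1.17 in transgenic replicates 1 to 4. Of 9 T and NK cell markers 2 rose, and 5 were higher at an unadjusted p under 0.05. Of 7 stellate cell and fibroblast markers 2 rose, and 4 were higher at that level, against 15.3% of all genes.

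Of 11 hepatocyte markers 0 passed by limma and 2 were lower at an unadjusted p under 0.05, with a median of -0.15. Their mean level ranged from 11.84 to 12.38 in transgenic livers and from 12.11 to 12.39 in controls. By array the hepatocyte median was -0.15, -0.36, -0.01 and -0.02 against the control mean. It was lowest in transgenic replicate 2, where the macrophage markers were highest and the oxidation genes lowest. The part of these cell markers in the lower readings was not tested. Of the remaining lists, 0 adipocyte, B cell, neutrophil, endothelial, bile duct or erythroid markers passed. At an unadjusted p under 0.05, 2 adipocyte markers and 1 bile duct marker were lower and 2 endothelial markers higher, with 0 in the other 3 lists.

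**Figure D4:**
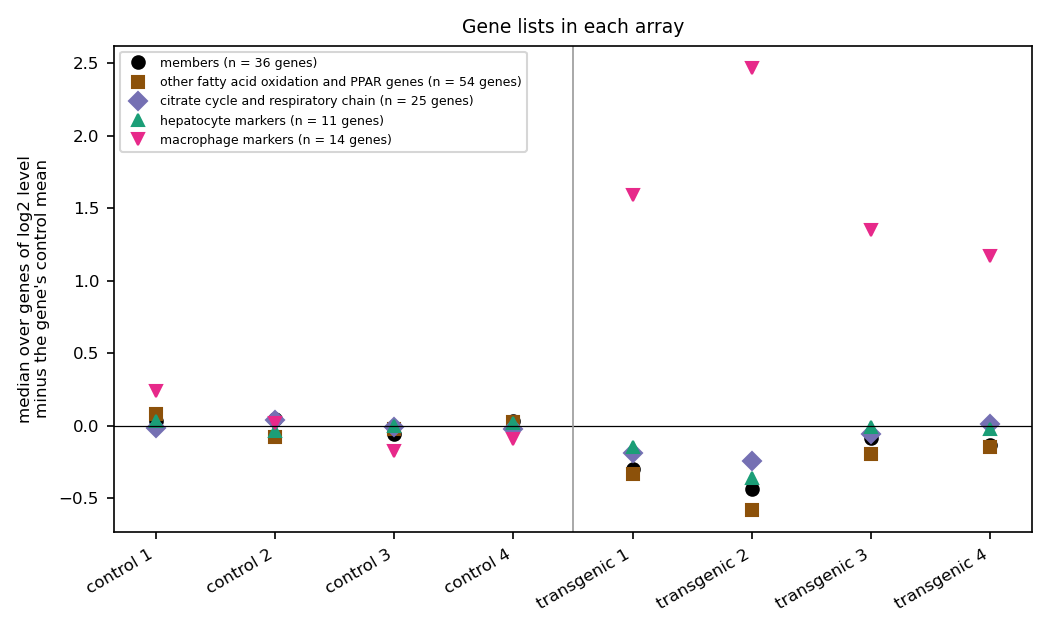
Median over the genes of 5 lists (members: the 36 oxidation and PPAR-alpha target genes) of the log2 level minus the gene's control mean, by array. In transgenic replicate 2 the macrophage markers are highest, at 2.47, and the oxidation genes and hepatocyte markers lowest, at -0.44 and -0.36.

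Other genes of the same pathway were read from a list of 62, of which 54 were measured. By limma 8 of the 54 fell, against 1.67% of all genes, and 2 rose, against 4.67% of all genes. The other 44 did not pass. The median was -0.34, with 42 on the lower side (77.8%, against 61.6% of all genes). Nudt7, a peroxisomal enzyme that breaks down CoA, fell by 1.70 (adjusted p = 0.0276). Ppargc1b, a coactivator related to Ppargc1a, fell by 0.47 (adjusted p = 0.0250). Acad8, a dehydrogenase of valine breakdown, fell by 0.72 (adjusted p = 0.0281). Bdh2, Mlycd, Acadsb, Creb3l3 and Plin5 were the others that fell. The long-chain activating enzyme Acsl4 and the fatty acid uptake receptor Cd36 rose, by 0.93 and 0.88. These counts, too, moved with single arrays: 0 genes of this list passed without transgenic replicate 1 or without control replicates 1, 2 or 4. Of all genes 0.015%, 0.0652%, 0.0502% and 0.16% were then called lower, and 0.998%, 1.28%, 0.963% and 1.34% higher. These counts of 0 therefore say nothing particular about the list. Without transgenic replicate 4, 17 were called lower, against 4.73% of all genes. Without control replicate 3, 1 was called lower and 1 higher, against 0.176% and 1.02% of all genes. Centring the arrays left 3 lower and 1 higher, against 0.487% and 3.1% of all genes. Testing all deposited probe sets left 1 lower and 0 higher, against 0.271% and 2.13% of all genes. Against a 1.2-fold change with limma's treat 0 passed in either direction, while 0.0401% of all genes were called lower and 1.36% higher.

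Rxra, the gene of the receptor that pairs with PPAR-alpha, did not pass (-0.12, 95% interval -0.42 to 0.18, adjusted p = 0.542). Pparg, of the related receptor PPAR-gamma, did not pass either (0.26, 95% interval -0.04 to 0.57, adjusted p = 0.199). The Cyp4a and Cyp4f hydroxylases, further PPAR-alpha targets, were measured for 4 genes. All 4 lay lower in every transgenic liver with an unadjusted p under 0.05, and 0 passed after adjustment, with log2 fold changes of -2.96 for Cyp4a14, -1.98 for Cyp4a10, -1.78 for Cyp4a31 and -0.70 for Cyp4f15 (adjusted p from 0.0509 to 0.0811). By array their median was -2.91, -3.01, -1.03 and -0.57 against the control mean, so these genes too were lowest in transgenic replicates 1 and 2.

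Genes of the citrate cycle and respiratory chain, which burn the acetyl-CoA and the electrons, had a median of -0.11, against -0.07 for all genes. On the lower side were 19 of 25 (76%, against 61.6% of all genes). By limma 0 fell, against 1.67% of all genes, with 8 lower at an unadjusted p under 0.05, against 18.3%. The 1 that rose, against 4.67% of all genes, was Idh3a, a subunit of isocitrate dehydrogenase, by 0.53 (adjusted p = 0.0375). Whether the oxidation genes and these mitochondrial genes differ in response was not tested.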

How the data were processed

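The authors deposited log2 values for 35556 probe sets on 8 arrays. Per the submitters' processing notes, they used Affymetrix Expression Console. The sources used here do not give its version, the normalization or the array's genome build. Scanner files were not used here, and no background or detection value was at hand. Annotation ties 21789 probe sets to 1 symbol, 1621 to several and 12146 to none.

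Limma 3.58.1 in R 4.3.3 fitted the group to the 21789 probe sets as deposited (prior degrees of freedom 3.77), two-sided, with Benjamini-Hochberg adjustment over all of them and a threshold of 0.05. Genes (19938) were then read through the brightest probe set. Differences are coded as transgenic minus control with limma's moderated SE. The steps were tested on simulated data.

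The genes and lists were chosen with earlier results of these data known. Values by array are given for called genes, then by smallest p until 12, and for Ppara, Ppargc1a and Cpt1a; other genes of the set are given by range or fold change, and in further lists at most 3 genes with the smallest p. Outside this rule, values by array of Fgf21, Pdk4, Angptl4, Ehhadh and Acot3, and the pathway genes Bdh2, Mlycd, Acadsb, Creb3l3, Plin5, Acsl4, Cd36, Rxra, Pparg, Acaa1a and Cyp4f15, were chosen after their values were seen.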

Additional observations from a re-analysis of the deposited data

Results flagged for a closer look

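In groups of 4 arrays, a single array stood far from the other 3 for 8 of 72 combinations of gene and group. For a single combination chance gives about 1 in 20. The 72 combinations share the same 8 arrays and are not independent, and the rate over all genes was not counted. No excess over chance is read from the count. Transgenic replicate 2 was low for Cpt1a (10.39, others 10.65 to 10.66) and Acadm (10.81, others 11.18 to 11.24) and high for Pdk4 (7.42, others 6.34 to 6.39). Transgenic replicate 1 was low for Acot3 (4.06, others 4.97 to 5.06) and high for Fgf21 (5.78, others 4.91 to 4.95). Control replicate 3 was low for Fabp1 (12.14, others 12.51 to 12.56) and Eci2 (8.86, others 9.33 to 9.40), and control replicate 2 was high for Pdk4 (6.87, others 6.03 to 6.14).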

How the results depend on the processing

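The count of genes called lower was 2 as reported, where 1.67% of all genes were called lower. It was 4 after dropping the dimmest 30% or 50% of probe sets and with array weights. Of all genes 3.07%, 3.88% and 2.51% were then called lower. The count was 0 with arrays centred on their medians, with all deposited probe sets tested and when limma's treat asked for more than 1.2-fold. In these settings 0.487%, 0.271% and 0.0401% of all genes were called lower. With the replicate block the count was 1 (Acot1), against 0.873% of all genes, Fabp1 being lost (adjusted p = 0.0703). Deviations of same-numbered arrays correlated by 0.24, -0.03, 0.26 and -0.13, and only numbers 1 and 3 correlated best with their own number, so the numbers were not taken as pairs. Leaving out 1 array gave 0 to 8 called lower, while 0.015% to 4.73% of all genes were called lower. The count called higher, 0 as reported, was 1 (Crat) without the dimmest 30% or 50%, with trend and robust moderation and with the replicate block. Of all genes 8.15%, 10.6%, 5% and 3.36% were called higher in these settings, against 4.67% as reported. Leaving out 1 array gave 0 to 1 called higher, while 0.963% to 8.21% of all genes were called higher. The 1 was Crat without transgenic replicate 4, where that share was 8.21%. The median of the set stayed negative in all 18 alternatives, from -0.29 to -0.18, while the median of all genes moved from -0.07 to 0.0057 when arrays were centred and to 0.05 without the dimmest 50%, where 31 of 34 genes of the set and 44.0% of all genes lay lower. Genes lower at an unadjusted p under 0.05 numbered 11 to 17, except 5 against 1.2-fold with treat. Of all genes 11% to 21.1% were lower at that level, and 2.14% with treat. Of the 15 genes followed through every alternative, 13 kept their sign in all of them. Ppargc1a turned to 0.0439 with centred arrays, to 0.0224 as the mean of its probe sets, and ranged from -0.19 to 0.10 leaving out 1 array. Cpt1a turned to 0.069 with centred arrays and ranged from -0.10 to 0.0569 leaving out 1 array. Which cause lies behind these changes was not tested. A pseudocount did not apply to log2 values.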
